A study of Mus musculus with 8 samples.

Results

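Il10 loss was read in the colon of C57BL/6J mice, by comparing pools that carry the targeted allele Il10tm1Cgn with pools of the same strain that lack it. The sample titles put 4 of the series' 8 RNA pools in this comparison, 2 of C57BL/6J-Il10tm1Cgn (called Il10-null here) and 2 of C57BL/6J (wild type). The other 4 pools hold the same genotypes in the strain C3H/HeJBir. Each C57BL/6J pool combined 7 µg of RNA from the total colon of each of 5 animals and was hybridised to 1 Affymetrix MG_U74Av2 array, an oligonucleotide array for mouse transcripts on which all 12422 non-control probe sets were read. Both genotypes carry a sample 1 and a sample 2. The wild-type sample 2 pool is titled as 4 weeks old; no source used here gives the age of the other 3 pools, the sex of the mice, their housing or their intestinal pathology. The allele is a germline disruption, so every cell of these mice lacks the cytokine, and a pool gives 1 value for 5 animals with no spread between them.

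Interleukin 10 is a cytokine made by T cells, B cells and macrophages that acts through its receptor and Stat3 to restrain macrophage and helper T cell activity. Mice without it are known for colitis that depends on gut bacteria, and C57BL/6J is known to develop it more slowly than C3H/HeJBir. Interferon gamma, a product of activated T and NK cells, induces guanylate-binding proteins, immunity-related GTPases, chemokines, and the genes that load peptides on major histocompatibility complex (MHC) molecules. Colon epithelium answers contact with bacteria by secreting lectins of the Reg3 family and resistin-like beta.

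Among probe sets with 1 gene symbol, pools apart and an unadjusted limma p under 0.05, many of the largest higher differences in Il10-null C57BL/6J colon belonged to genes that interferon gamma induces and to secreted epithelial defence genes. The 12 largest read Iigp1, Ido1, Cxcl9, Retnlb, Reg3g, Cd74, Il18bp, H2-DMa, Reg3b and Gbp2, at log2 differences of 1.60 to 3.21. Outside these limits, 3 probe sets with either no symbol or several stood at 2.18 to 2.24, and Upp1 at 1.70. A log2 difference here is Il10-null minus wild type of log2(intensity + 11.07), which understates the change of dim genes, and is given with the SE of a limma fit (n = 2 pools per genotype). The fit took all 8 arrays of the series as 4 group means. Each SE and p therefore rests on a spread shared with the C3H/HeJBir pools. No probe set of the 7453 bright enough to test passed a limma adjusted p of 0.05 (0% called), so all differences below are given as values and not as changes, and a p value reflects how pools differ, with no measure of how animals do. The smallest adjusted p was 0.102. At an unadjusted limma p under 0.05 there were 118 probe sets (1.58%), of which 66 were higher (0.886%) and 52 lower (0.698%) in the Il10-null pools; with the sample number as a block these numbers were 124 and 96. Without the wild-type sample 1 pool they were 124 and 28, and without the Il10-null sample 2 pool the lower ones numbered 103. A permutation test of 2 pools against 2 cannot give an exact p below 0.333.

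The samples did not carry equal weight. The sample 2 pools of both genotypes were hybridised on the same day and correlated best (Spearman 0.960 across all probe sets, against 0.940 to 0.947 for the other pairs of C57BL/6J pools). The sample 1 pools were hybridised on different days, so genotype and day cannot be told apart in that pair. In the sample 2 pair the wild-type pool is titled as 4 weeks old and the Il10-null pool has no stated age. Any difference in age cannot be told apart from genotype there. Across the 7453 tested probe sets (genes are not independent replicates), the difference in the sample 1 pair correlated with that in the sample 2 pair at a Pearson r of 0.041. Of the 23 probe sets more than 2 log2 units higher in the sample 2 pair, 21 (91.3%) were also higher in the sample 1 pair, where 49% of all tested probe sets were higher; their median there was 0.82. Of the 152 more than 1 unit higher in the sample 2 pair, 89 (58.6%) were higher in the sample 1 pair, at a median of 0.10, and 26 were past 1 unit there too. Of the 36 more than 1 unit lower in the sample 2 pair, 17 (47.2%) were lower in the sample 1 pair, against 51% of all tested probe sets. Chosen the other way round, of the 93 more than 1 unit higher in the sample 1 pair 50 (53.8%) were higher in the sample 2 pair, and of the 164 more than 1 unit lower 69 (42.1%) were lower there. At the 2-unit cutoff, 5 of the 7 higher in the sample 1 pair (71.4%) were higher in the sample 2 pair. Of the 11 lower in the sample 1 pair, 5 (45.5%) were lower in the sample 2 pair. Of the 2 lower in the sample 2 pair, 0 were lower in the sample 1 pair. Of the 23 higher in the sample 2 pair, 2 were past 2 units in the sample 1 pair too. A high share in the same direction was thus seen for these 23, which include several of the interferon gamma and MHC class II genes. Shares at the lower cutoff were nearer the background.

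**Figure D1:**
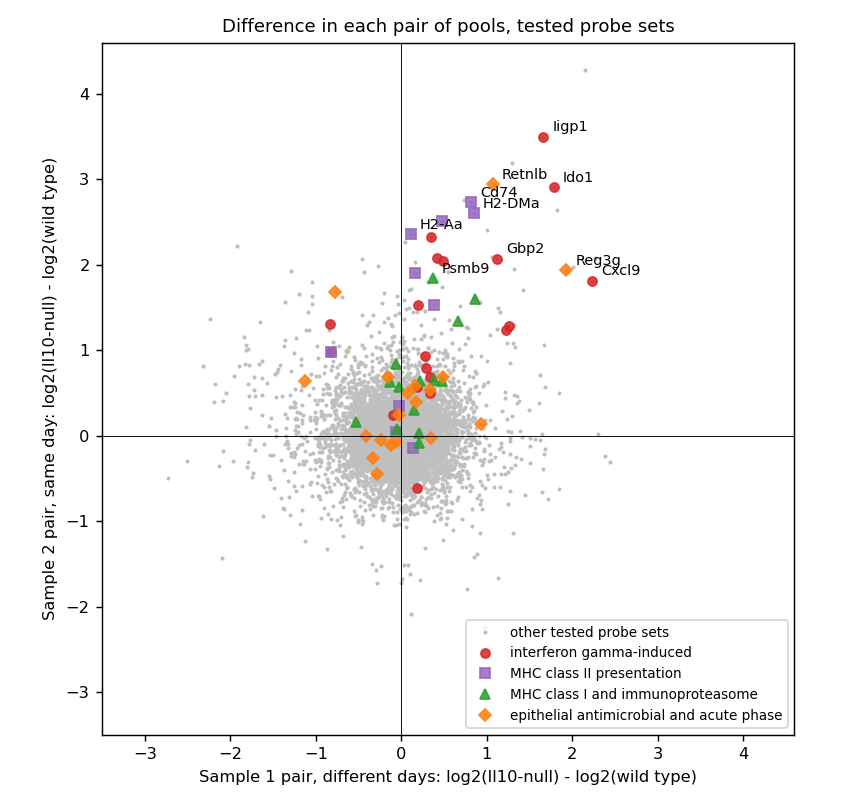
Each point is 1 of 7453 tested probe sets; the x axis is the log2 difference, Il10-null minus wild type, in the sample 1 pools (different days) and the y axis that in the sample 2 pools (same day). Coloured points are the tested members of 4 gene lists. Most probe sets scatter around 0 with no slope (Pearson r 0.041), and Iigp1, Ido1, Retnlb, Reg3g, Cxcl9, Gbp2, Cd74 and H2-DMa stand in the upper right corner.

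Other properties of the pools were set beside the genotype. Median intensity was 62.2 and 53.3 in the wild-type pools and 60.4 and 54.9 in the Il10-null pools, and the 2% trimmed means of the series' 8 arrays lay within a ratio of 1.01. Xist, a noncoding RNA made from the silenced X of females, read 452 and 2.84 in the wild-type pools and 255 and 4.08 in the Il10-null pools. Eif2s3y, on the Y chromosome, read 39.6 and 256 and 113 and 263. Both genes followed the sample number more than the genotype, but within sample 1 they also differed between the genotypes. The mix of sexes in each pool was not tested. The 15 genes of the exocrine pancreas list on the array summed to intensities of 12174, 11020.2, 11927 and 9993 in the wild-type sample 1, wild-type sample 2, Il10-null sample 1 and Il10-null sample 2 pools. This list also holds Zg16, a goblet cell product, so the sum is not a measure of pancreas alone. Over its 12 tested members the median log2 deviation from the mean of the 4 pools was 0.27, -0.50, 0.71 and -0.56 in the same order. Prss2, a trypsinogen, read 226 and 4.69 in wild type and 321 and 19.7 in Il10-null. The labelled tissue was met by its markers, since Krt8, a keratin of simple epithelium, Zg16 and Tff3, secreted by goblet cells, and Tagln, of smooth muscle, were above the filter in all 4 pools.

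The Il10 probe set gave no check of the genotype. It read 9.70 and 7.34 in the wild-type pools and 51.7 and 22.03 in the pools labelled Il10-null, below the mean of 37.0 required for testing, and the higher readings were those of the Il10-null pools. Il10tm1Cgn disrupts the start of the gene, and where the probes lie relative to the disruption was not analysed here, so transcript from the disrupted gene could be read by them. Il10ra, the ligand-binding receptor chain, was also below the filter, at 17.2 and 4.86 in wild type and 5.76 and 4.93 in Il10-null. Il10rb, the shared receptor chain, read 605 and 516 and 740.3 and 509 and overlapped between genotypes (log2 0.13 ± 0.25). Of the 21 genes of Il10 receptor and Stat3 signalling on the array, 5 were apart on the higher side and none on the lower. They were Jak3, a kinase of lymphocyte cytokine receptors (log2 1.26 ± 0.51), Bcl3, a nuclear regulator of NF-kappaB that Stat3 induces (0.71 ± 0.32), Jak2 (0.29 ± 0.25), Stat3 (0.26 ± 0.23) and Il10 itself. Socs3, a feedback inhibitor that Stat3 induces, read 40.7 and 163 in the Il10-null pools, on either side of the wild-type pools at 43.5 and 54.5.

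Over members on the array, genes that interferon gamma induces were the list with the highest median; over tested members MHC class II stood higher (0.99 against 0.86). Of its 22 members on the array, 13 had both Il10-null pools above both wild-type pools and none had both below, against 12.8% (higher) and 14.5% (lower) of all 8251 genes on the array, the shares to hold every such count below against. Their median log2 difference was 0.62, against -0.01 over all genes on the array, and it was 0.33 in the sample 1 pair and 1.11 in the sample 2 pair. Over the 19 members that passed the filter it was 0.86, but 4 of these had a wild-type mean below the filter; without the Il10-null sample 1 pool it was 1.32 and without the Il10-null sample 2 pool 0.65. Whether a difference came from more expressing cells or from more RNA per cell cannot be told apart in pooled tissue RNA.

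The effector GTPases of this list were mostly apart. Iigp1, an immunity-related GTPase that attacks the vacuoles of intracellular pathogens, read 44.1 and 49.2 in the wild-type pools and 163 and 670.0 in the Il10-null pools on its brighter probe set (log2 2.58 ± 0.71). Its other probe set, of a kind designed to a family of related sequences, read 22.97 and 5.60 and 139.5 and 312 (3.21 ± 0.63). Both Il10-null pools were clear of the wild-type pools on both probe sets, with the sample 2 pool on top. Gbp2, a guanylate-binding protein of the same defence, read 128 and 107 in wild type and 291 and 486 in Il10-null (log2 1.60 ± 0.47). Gbp3 read 50.6 and 26.3 and 67.3 and 177 (1.34 ± 0.51). Irgm1, a regulator of the immunity-related GTPases, read 25.7 and 27.8 and 77.2 and 83.4 (1.27 ± 0.45), and here the Il10-null samples lay close together. Ifi47, Igtp and Irgm2, further GTPases of this family, were apart as well, with log2 differences of 1.27 ± 0.68, 1.25 ± 0.62 and 0.86 ± 0.47; Gbp7 was apart by less (0.54 ± 0.41). Gbp2b, the member put forward by the published study, was dim and overlapped, at 19.6 and 3.62 in wild type and 6.08 and 25.4 in Il10-null.

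The list also holds enzymes, chemokines and regulators, of which Ido1 and Cxcl9 exceeded every GTPase but Iigp1. Ido1, the tryptophan-degrading enzyme indoleamine dioxygenase, read 26.3 and 17.9 in the wild-type pools and 118 and 206 in the Il10-null pools (log2 2.34 ± 0.59). Cxcl9, which draws activated T cells through Cxcr3, read 4.29 and 12.4 and 61.0 and 71.7 (2.02 ± 0.63). The Il10-null samples lay closer together for Cxcl9 than for Ido1, and both were clear of the wild-type pools. These Ido1 readings came from its brighter probe set. The dimmer one, below the filter, overlapped at 29.9 and 4.87 in wild type and 36.9 and 3.82 in Il10-null. Ubd, a ubiquitin-like modifier, read 6.98 and 22.5 and 31.3 and 67.8 (1.23 ± 0.66). Irf8, a transcription factor of myeloid cells, and Socs1, the feedback inhibitor of the pathway, were apart by 0.61 ± 0.35 and 0.51 ± 0.49. Irf1, the pathway's transcription factor, read 646 and 856 and 738 and 1277 and overlapped. Cxcl10, Nos2, Icam1, Ciita and Fcgr1 overlapped too. Ifng itself read 2.46 or less in all 4 pools, which is dimmer than the filter, and gave no measurement. Il18bp, the soluble inhibitor of interleukin 18 and outside this list, read 35.5 and 13.3 in wild type and 66.2 and 154 in Il10-null (log2 1.75 ± 0.65).

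The letters that interferon-activated factors bind were searched in the promoters of the separated members. Of the 6 with the largest differences and a promoter that can be shown, the 4 that hold a match are printed, to let a reader see where the letters lie. Promoters, from 250 bases before to 50 after a RefSeq transcript start in GRCm38.p6, were found for 11 of the 13 separated members; no sequence is shown for the others. The core of the interferon-stimulated response element (ISRE), searched as GAAANNGAAA on both strands, was present in 7 of the 11, against 3.44% of all 32851 promoters of the same length. The core of the gamma-activated site (GAS), searched as TTCNNNGAA, which reads the same on both strands, was present in 4 of 11, against 8.3%. Either was present in 8. The list was made of genes that interferon gamma induces, and members with overlapping pools were not searched. These shares therefore do not bear on Il10 loss. A gene counted if any of its listed starts held a match, whereas the background counts each promoter. The sequences run 5′ to 3′ on the gene's strand, with ISRE and GAS matches in capitals. Gbp2 lies at chr3:142620413-142620712 (plus strand), Gbp3, at the first of its 2 listed starts, at chr3:142559794-142560093 (plus), Irgm1 at chr11:48871371-48871670 (minus) and Igtp at chr11:58199306-58199605 (plus).
Gbp2: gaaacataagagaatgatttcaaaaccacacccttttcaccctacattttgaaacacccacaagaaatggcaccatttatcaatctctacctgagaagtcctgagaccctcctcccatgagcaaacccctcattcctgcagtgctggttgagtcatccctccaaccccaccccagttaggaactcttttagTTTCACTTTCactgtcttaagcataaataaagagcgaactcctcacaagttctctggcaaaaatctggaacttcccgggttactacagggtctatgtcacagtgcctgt
Gbp3: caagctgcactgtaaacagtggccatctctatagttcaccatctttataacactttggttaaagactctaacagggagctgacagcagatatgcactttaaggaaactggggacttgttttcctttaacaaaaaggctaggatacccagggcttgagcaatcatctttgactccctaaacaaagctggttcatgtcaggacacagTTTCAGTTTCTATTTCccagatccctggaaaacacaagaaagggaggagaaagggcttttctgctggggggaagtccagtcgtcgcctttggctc
Irgm1: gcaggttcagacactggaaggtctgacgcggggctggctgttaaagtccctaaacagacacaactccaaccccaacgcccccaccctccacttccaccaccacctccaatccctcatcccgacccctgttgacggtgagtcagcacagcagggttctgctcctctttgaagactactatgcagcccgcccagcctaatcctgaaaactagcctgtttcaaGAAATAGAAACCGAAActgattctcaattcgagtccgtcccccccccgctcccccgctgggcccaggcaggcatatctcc
Igtp: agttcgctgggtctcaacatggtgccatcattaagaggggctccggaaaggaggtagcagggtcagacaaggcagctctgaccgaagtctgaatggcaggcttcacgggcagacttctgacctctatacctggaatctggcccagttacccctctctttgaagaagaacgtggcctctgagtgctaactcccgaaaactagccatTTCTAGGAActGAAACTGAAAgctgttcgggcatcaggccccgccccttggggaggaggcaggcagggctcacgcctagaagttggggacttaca
Gbp2 holds 1 ISRE core, which begins 59 bases before the start, and Gbp3 and Irgm1 each hold 2 that overlap. Igtp holds a GAS core followed after 2 bases by an ISRE core, and Irgm2 holds the same arrangement. The windows of Cxcl9, Ifi47 and Ubd hold neither set of letters. A match is a description of the letters and not of a bound site.

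**Figure D2:**
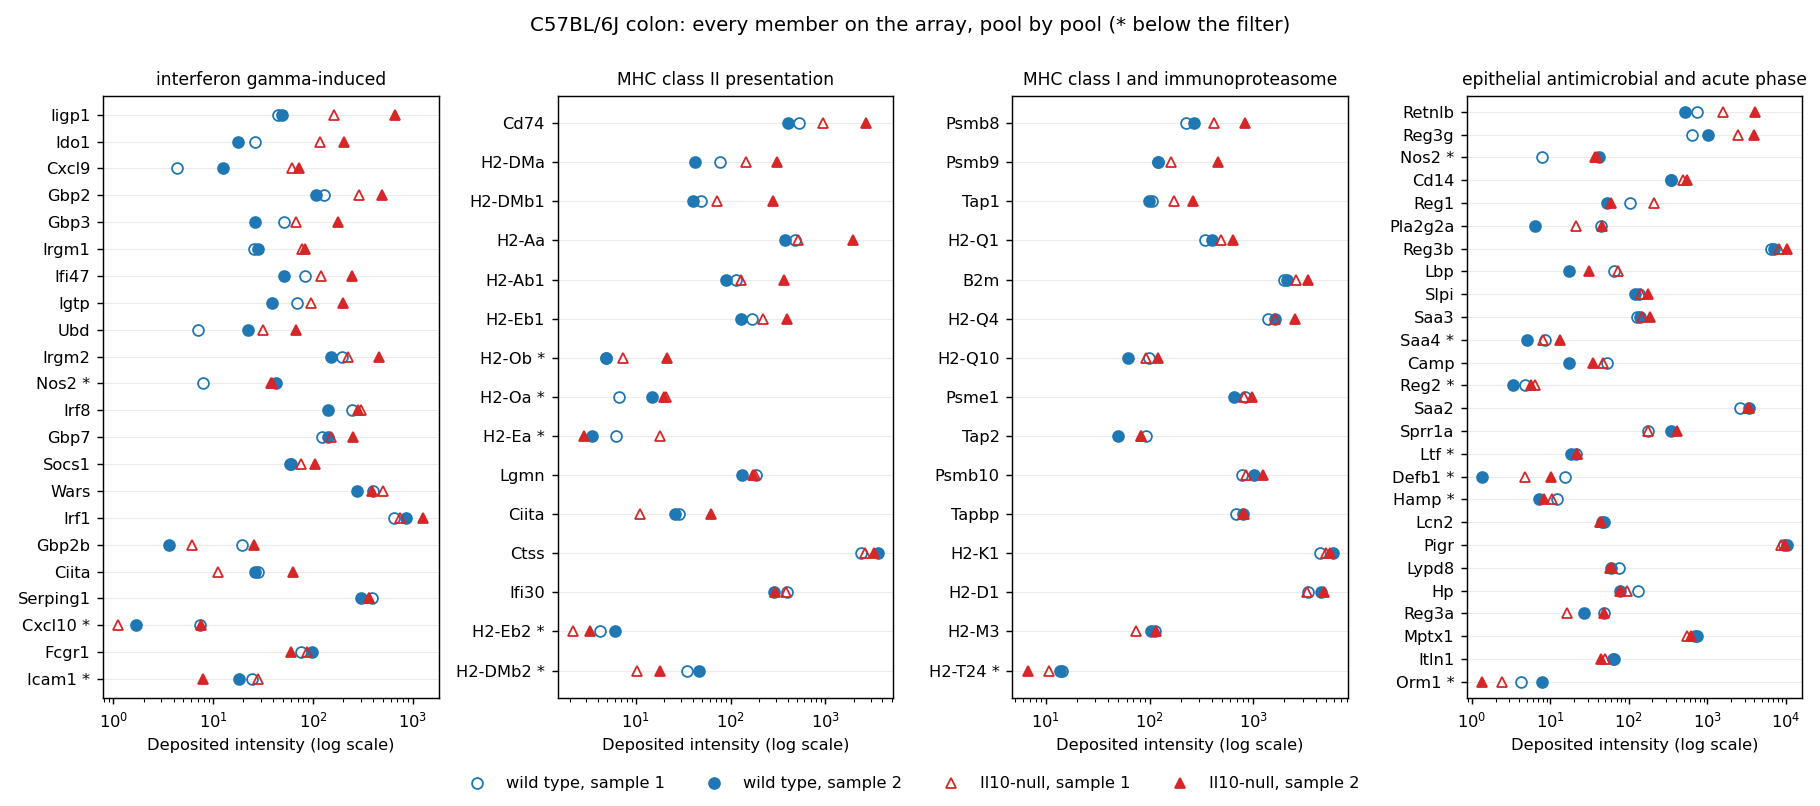
Deposited intensity on a log axis for every member on the array of 4 gene lists, 1 row per gene by falling log2 difference, with wild-type pools as circles, Il10-null pools as triangles, sample 1 open and sample 2 filled; an asterisk marks genes below the filter. Both triangles lie to the right of both circles for 13 of 22 interferon gamma-induced genes and 8 of 15 MHC class II genes, and the filled triangle is usually the rightmost.

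MHC class II molecules present peptides to helper T cells, and their genes were higher in Il10-null colon mainly in sample 2. Of 15 genes on the array, 8 were apart on the higher side and 2 on the lower, with a median log2 difference of 0.54. The median was 0.16 in the sample 1 pair and 0.98 in the sample 2 pair. Over the 10 tested members it was 0.99, which became 1.55 without the Il10-null sample 1 pool and 0.30 without the Il10-null sample 2 pool. Cd74, the invariant chain that guides class II molecules to the endosome, read 529 and 399 in wild type and 940.0 and 2718 in Il10-null (log2 1.78 ± 0.58). H2-DMa, a chain of the peptide exchange factor, read 76.8 and 41.9 and 147 and 311 (1.73 ± 0.53), and its partner H2-DMb1 read 49.1 and 39.7 and 72.3 and 278 (1.49 ± 0.71). All of these pools were in the order wild type below Il10-null sample 1 below Il10-null sample 2. The H2-DMa readings came from its brighter probe set. The dimmer one, below the filter, overlapped at 24.9 and 9.25 in wild type and 15.9 and 14.5 in Il10-null.

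The antigen-binding chains were closer in sample 1. H2-Aa, the alpha chain of I-A, read 479 and 376 in wild type and 517 and 1975 in Il10-null (log2 1.23 ± 0.67). H2-Ab1, its beta chain, read 114 and 88.9 and 129 and 365 (1.03 ± 0.63), and H2-Eb1 read 166 and 129 and 219.6 and 393 (0.95 ± 0.57). For H2-Aa and H2-Ab1 the sample 1 Il10-null pool exceeded the higher wild-type pool only narrowly. H2-Ea, which C57BL/6J is known not to express, read 6.12 and 3.46 and 17.8 and 2.83, under the filter. H2-DMb2 was apart in the other direction but also under the filter, at 34.6 and 46.8 and 10.4 and 18.1, and H2-Eb2 was the other member on the lower side. Ctss, the protease that degrades the invariant chain, and Ifi30, a reductase of the same compartment, overlapped; Ctss read 2400.4 and 3596 in wild type and 2647 and 3263 in Il10-null. Ciita, the master regulator of class II transcription, read 28.4 and 26.1 in wild type and 11.2 and 62.4 in Il10-null, so the Il10-null samples lay on either side.

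MHC class I genes present peptides of the cell's own proteins. Of 15 on the array, 6 were apart on the higher side and 1, H2-T24, on the lower, with a median log2 difference of 0.27. The interferon-inducible proteasome subunit Psmb8 read 222 and 267 in wild type and 415 and 835 in Il10-null (log2 1.24 ± 0.45). Psmb9, another such subunit, read 122 and 120.0 and 161 and 459 (1.11 ± 0.58). Tap1, a chain of the peptide transporter, read 106 and 97.8 and 174 and 265 on its brighter probe set (1.00 ± 0.50). The invariant light chain B2m and the class I gene H2-Q1 were apart by 0.52 ± 0.26 and 0.56 ± 0.30. The classical heavy chains H2-K1 and H2-D1, which were bright in every pool, overlapped, with H2-K1 at 4393 and 5834 in wild type and 5083 and 5491 in Il10-null.

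Genes that respond to type I interferon were described separately because many are shared with the gamma response. Of 24 on the array, 6 were apart on the higher side and 2 on the lower, with a median log2 difference of 0.12. Ifitm3, a membrane protein that blocks viral entry, read 609 and 450.1 in wild type and 696 and 762 in Il10-null (log2 0.47 ± 0.31), and Ifit2 read 35.5 and 32.7 and 72.2 and 59.3 (0.76 ± 0.60). The members on the lower side were Ifi27 (-0.53 ± 0.27) and Irf7, a transcription factor of this response (-0.46 ± 0.30). Ifit1, Ifit3, Mx1, Isg15 and Eif2ak2 overlapped.

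Secreted epithelial defence genes gave some of the brightest differences, in a few members only. Of 26 antimicrobial and acute phase genes on the array, 8 were apart on the higher side and 4 on the lower, with a median log2 difference of 0.17. Over the 19 tested members the median was 0.27, but it was -0.043 without the wild-type sample 2 pool, 0.17 without the Il10-null sample 1 pool and 0.12 without the Il10-null sample 2 pool. Retnlb, the goblet cell protein resistin-like beta, read 745 and 514 in wild type and 1572 and 4033 in Il10-null (log2 2.01 ± 0.42). Reg3g, a lectin that kills Gram-positive bacteria, read 646 and 1016 and 2496 and 3915 (1.93 ± 0.37) on its brighter probe set and 97.2 and 132 and 424 and 554 (1.99 ± 0.52) on the other. Retnlb and Reg3g were higher in the Il10-null pool of both samples, and for Reg3g the difference was of like size in each, 1.93 in sample 1 and 1.93 in sample 2. Reg3b, a related lectin, had probe sets that gave different sizes: 1378 and 1344 and 3448 and 5248 (1.64 ± 0.30) on one and 6422 and 7196 and 8132 and 10420.0 (0.44 ± 0.24) on the brighter. The brighter one was near the highest intensity of the Il10-null arrays, 9849 and 11003, and whether readings so near the top still scale was not tested. The Reg genes are close relatives, and readings of these probe sets may be shared between them.

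Cd14, the lipopolysaccharide co-receptor, which the published study singled out in these samples together with Gbp2b and Pla2g2a, read 344 and 341 in wild type and 485 and 556 in Il10-null (log2 0.58 ± 0.28, limma adjusted p = 1.00). Its pools were apart, with little spread within each genotype. Of the 23 Toll-like receptor and NF-kappaB genes on the array, 4 were apart on the higher side and 2 on the lower, near the 12.8% and 14.5% of all genes. Pla2g2a, a secreted phospholipase that C57BL/6J is known to carry as a broken gene, read 44.3 and 6.38 in wild type and 21.1 and 44.9 in Il10-null and overlapped. Lcn2, a siderophore-binding protein of inflamed epithelium and neutrophils, read 45.9 and 47.6 and 43.5 and 44.5, slightly lower in both Il10-null pools (-0.07 ± 0.31). Itln1 and Mptx1, secreted proteins that bind microbes, were on the lower side at -0.37 ± 0.53 and -0.29 ± 0.34. Saa3 and Slpi were apart on the higher side by less than their SE, and S100a8, a calprotectin subunit of neutrophils, overlapped at 35.0 and 19.7 and 34.6 and 23.6.

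Chemokines and cytokines were mostly too dim to test. Of 39 chemokine and receptor genes on the array, 12 passed the filter, and 9 of the 39 were apart on the higher side and 4 on the lower. Beside Cxcl9 the tested ones on the higher side were the neutrophil chemokines Cxcl5, at 16.6 and 15.4 in wild type and 30.9 and 45.3 in Il10-null, and Cxcl1, at 5.72 and 21.9 and 27.8 and 33.8, and the monocyte chemokine Ccl8, at 71.8 and 55.3 and 77.4 and 175. Their log2 differences were 0.84 ± 0.81 for Cxcl5, 0.83 ± 0.55 for Cxcl1 and 0.79 ± 0.60 for Ccl8. Of 36 cytokine genes, 10 passed the filter, and 4 of the 36 were apart on the higher side and 5 on the lower. Csf3, the granulocyte growth factor, read 148 and 197 and 71.3 and 114 (-0.84 ± 0.33), and was the tested cytokine with the largest difference. Tnf, Il1b, Il6, Il12b and Il17a were below the filter in this tissue. Of 21 leukocyte adhesion genes, 3 were apart on the higher side and 1 on the lower. Vcam1, an endothelial receptor for leukocytes, gave different readings on its probe sets, 19.9 and 16.5 in wild type and 58.0 and 64.1 in Il10-null on one (log2 1.30 ± 0.22) and an overlap on the other (-0.03 ± 0.37).

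Marker genes of blood cells were read as lists beside these differences. Of 28 T and NK cell genes on the array, 3 were apart on the higher side and 4 on the lower, and their intensities summed to 843, 585, 857 and 699 in the wild-type sample 1, wild-type sample 2, Il10-null sample 1 and Il10-null sample 2 pools. Their median log2 difference was -0.11 in the sample 1 pair and -0.0094 in the sample 2 pair. Cd3e, Cd3d and Cd3g, subunits of the T cell receptor complex, were all below the filter, with Cd3e at 10.3 and 11.8 in wild type and 10.2 and 10.5 in Il10-null. Of 30 macrophage and monocyte genes, 4 were apart on the higher side and 3 on the lower, with sums in the same order of 11148, 12819.5, 11117 and 12433 and pair medians of -0.19 and 0.14. The complement chain C1qa, made by tissue macrophages, read 317 and 264 and 259 and 293. Aif1 and Msr1, also of macrophages, were on the lower side at log2 -1.09 ± 0.59 and -0.88 ± 0.40. A dimmer Msr1 probe set, below the filter, overlapped. Cd68, another macrophage gene, was apart on the higher side, at 43.5 and 48.2 in wild type and 69.5 and 63.5 in Il10-null. Cd14, which is also in this list, was on the higher side as given above. The 21 B and plasma cell genes summed to 3965, 2460.4, 3207 and 3830.1. Their median was -0.28 in the sample 1 pair and 0.31 in the sample 2 pair, where 17 of the 21 were higher in the Il10-null pool and where the interferon gamma and MHC class II list medians were larger. Ighm, an antibody heavy chain, read 971 and 442 in wild type and 536 and 1059 in Il10-null. Of 19 neutrophil genes 3 were apart on the higher side and 2 on the lower. The part of these cell types in the interferon and MHC class II readings was not tested.

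Heat shock genes were higher by small amounts. Of 22 heat shock genes on the array, 8 were apart on the higher side and 1, Cryab, on the lower, against 12.8% and 14.5% of all genes, with a median log2 difference of 0.31 and near equal medians in the sample pairs (0.25 and 0.29). Hspa1b, an inducible Hsp70, read 123 and 125 in wild type and 219.7 and 210.1 in Il10-null (log2 0.74 ± 0.31), and its neighbour Hspa1a, nearly identical in sequence, read 123 and 125 and 240.3 and 182 (0.70 ± 0.28). These 2 genes cannot be counted as independent. Hsph1, an Hsp110 co-chaperone, Fkbp5, a glucocorticoid-induced co-chaperone, Hspd1 of the mitochondrion and Hspa8, the constitutive Hsc70, were apart by 0.62 ± 0.38, 0.60 ± 0.31, 0.49 ± 0.34 and 0.30 ± 0.25. Of 26 immediate early genes, 9 were apart on the higher side and 1 on the lower, with a median of 0.11. Ier2 read 176 and 185 and 302 and 237 (0.54 ± 0.28), and Gadd45g, a stress-induced growth regulator, read 40.1 and 10.4 and 52.4 and 63.3 (1.05 ± 0.43). Of 22 endoplasmic reticulum stress genes, 5 were apart on the higher side and 1 on the lower, with a median of 0.13; Manf, a secreted protein of that response, was apart by 0.65 ± 0.31.

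**Figure D3:**
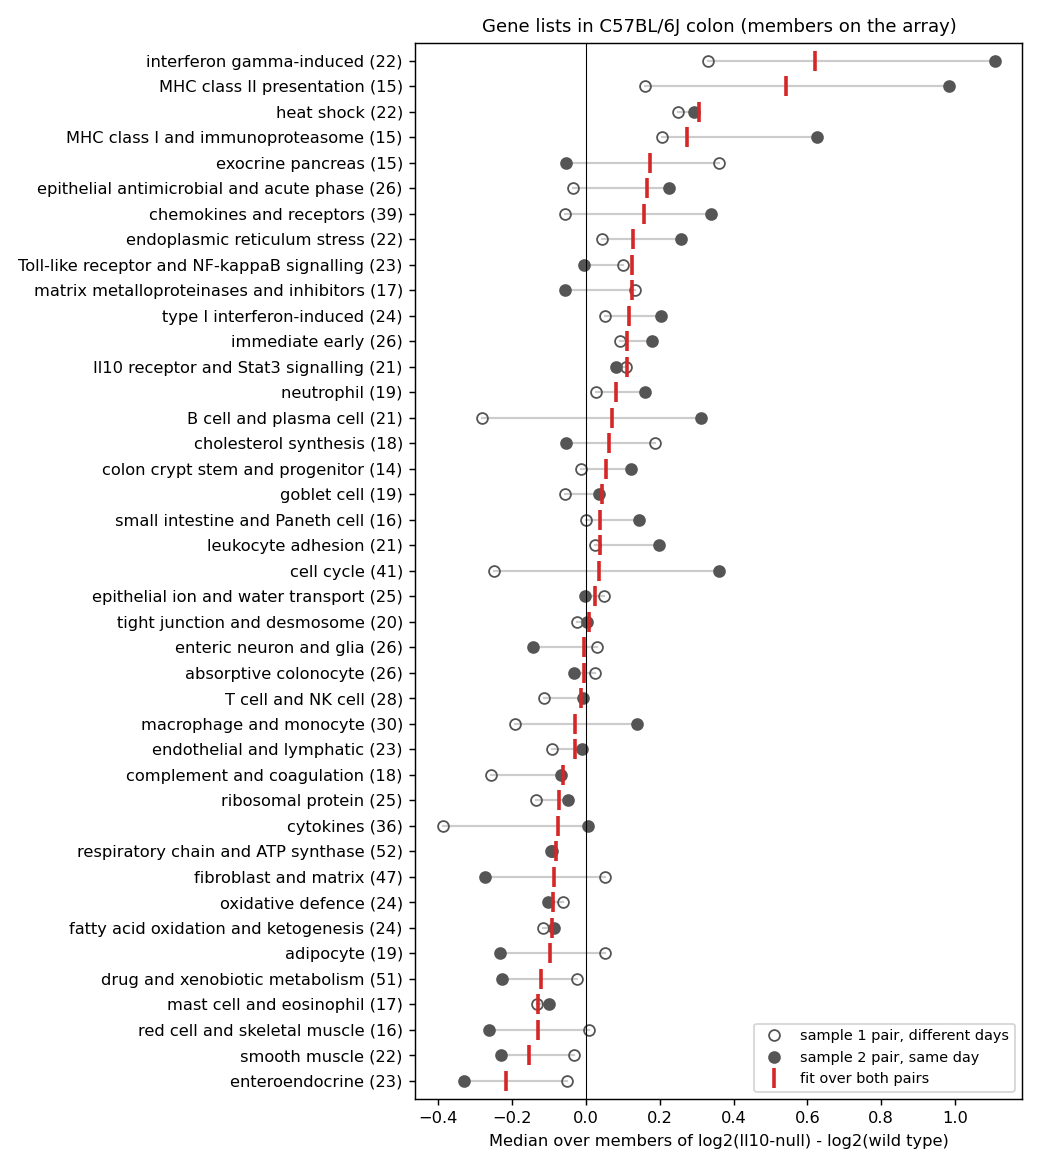
Median log2 difference, Il10-null minus wild type, over the members on the array of each gene list with at least 10 members there (their number in brackets), in the sample 1 pair (open), in the sample 2 pair (filled) and in the fit over both (red bar). The interferon gamma-induced, MHC class II, heat shock and MHC class I lists stand on the right in both pairs, and the cell cycle and B cell lists point in opposite directions in the pairs.

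Enteroendocrine genes lay on the lower side, by a small median. Of 23 on the array, 7 were apart on the lower side and none on the higher, against 14.5% and 12.8% of all genes, with a median log2 difference of -0.22 (-0.05 in the sample 1 pair and -0.33 in the sample 2 pair). The granins Chga and Chgb, stored with hormones in secretory granules, were apart by -0.28 ± 0.44 and -0.31 ± 0.29. Cck, the hormone cholecystokinin, read 31.2 and 28.9 in wild type and 7.38 and 20.7 in Il10-null (-0.76 ± 0.35), and Scg5, a chaperone of prohormone processing, read 69.9 and 47.0 and 34.1 and 33.9 (-0.61 ± 0.32). Gcg and Sst, hormones of colonic endocrine cells, overlapped. All of the genes named here were lower in the Il10-null pool of both samples except Gcg and Sst, whose pools were mixed.

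Muscle and matrix genes had small medians below 0. Of 22 smooth muscle genes, 7 were apart on the lower side and 2 on the higher, against 14.5% and 12.8% of all genes, with a median of -0.15 (-0.03 in the sample 1 pair and -0.23 in the sample 2 pair). Cnn1, calponin, read 1808 and 1872 in wild type and 1494 and 1414 in Il10-null (-0.34 ± 0.33), and Tagln, transgelin, read 3074 and 3304 and 2792 and 2310.3 (-0.33 ± 0.31). Of 47 fibroblast and matrix genes, 11 were apart on the lower side and none on the higher, with a median of -0.09, but the median was 0.05 in the sample 1 pair and -0.27 in the sample 2 pair. Igfbp7, a secreted binding protein of vessels and stroma, read 93.2 and 74.1 and 47.9 and 32.1 (-0.90 ± 0.25), Col3a1, a fibrillar collagen, read 1482 and 1459 and 1366 and 952 (-0.36 ± 0.36), and Fmod, which binds collagen, read 87.1 and 54.6 and 12.1 and 46.9 (-1.13 ± 0.54). The smooth muscle genes summed to 20655, 20180.0, 19162 and 16138 in the wild-type sample 1, wild-type sample 2, Il10-null sample 1 and Il10-null sample 2 pools and the fibroblast and matrix genes to 14066, 13862, 14203 and 11298 in the same order, so the Il10-null sample 2 pool was lowest in both. The part of the muscle and stroma taken into each pool was not tested.

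Epithelial cell types were nearly level. Of 26 absorptive colonocyte genes, 1 was apart on the higher side and 4 on the lower, with a median of -0.01; Ggh, a folate-processing hydrolase, read 1285 and 1825 in wild type and 679.8 and 1009.9 in Il10-null (-0.88 ± 0.49), and Cdx1, an intestinal transcription factor, read 330.2 and 372 and 505 and 496 (0.50 ± 0.24). Of 19 goblet cell genes, 2 were apart on the higher side, Retnlb and the glycosyltransferase Galnt3 (0.26 ± 0.22), and 3 on the lower, among them Tff3 (-0.22 ± 0.21) and Zg16 (-0.18 ± 0.22). Of 14 crypt stem and progenitor genes none was apart. Of 41 cell cycle genes 5 were apart on the higher side and 6 on the lower, and the list median was -0.25 in the sample 1 pair and 0.36 in the sample 2 pair. Mcm4 and Mcm7, of the replicative helicase, were higher in both (0.81 ± 0.27 and 0.46 ± 0.23), while Cenpa, of the centromere, was lower (-0.48 ± 0.27).

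Metabolic lists had medians close to 0. Of 52 respiratory chain and ATP synthase genes, 14 were apart on the lower side and 5 on the higher, with a median log2 difference of -0.08. Cox6b1, a subunit of cytochrome oxidase, read 91.6 and 121 in wild type and 22.4 and 58.0 in Il10-null (log2 -1.28 ± 0.39) and was the only one with an absolute difference over 1. Of 51 drug and xenobiotic metabolism genes, 9 were apart on the lower side and 6 on the higher, near the 14.5% and 12.8% of all genes, with a median of -0.12. Cyp4b1, a cytochrome P450, read 313 and 509 and 264 and 169.7 (-0.88 ± 0.33), and Abcc1, an efflux pump, read 52.0 and 54.8 and 20.6 and 33.7 (-0.78 ± 0.27). Of 24 oxidative defence genes, 5 were apart on the lower side and 2 on the higher; Prdx3, the mitochondrial peroxiredoxin, read 793 and 623 and 435 and 409 (-0.72 ± 0.27). Of 25 ribosomal protein genes 6 were apart on the lower side and none on the higher, at a median of -0.07, which shows how small a shift separates bright probe sets.

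On the lower side, the 12 largest differences among probe sets with 1 gene symbol, pools apart and an unadjusted limma p under 0.05 were of genes with varied roles. Without the limit on p, others such as Fmod and Aif1 were as low. Dusp2, a phosphatase that switches off MAP kinases in activated lymphocytes, read 93.5 and 120.1 in wild type and 13.3 and 37.6 in Il10-null (log2 -1.77 ± 0.45). Sec63, of the protein translocon, read 135 and 84.6 and 14.5 and 66.6 (-1.41 ± 0.58), and Slc2a5, the fructose transporter, read 68.2 and 44.9 and 9.23 and 34.3 (-1.13 ± 0.45). In all 3 the Il10-null sample 1 pool was the lowest by far. Gimap1, a GTPase of lymphocytes, read 69.0 and 44.5 and 12.7 and 28.9 (-1.11 ± 0.39), Mcpt1, a protease of mucosal mast cells, read 103 and 57.9 and 35.3 and 25.3 (-1.11 ± 0.48), and Uvrag, an autophagy factor, read 125 and 170.5 and 49.5 and 88.1 (-1.02 ± 0.39). Of the 49 probe sets with 1 gene symbol that were lower at an unadjusted limma p under 0.05, 12 had the larger difference in the sample 2 pair, whereas of the 55 that were higher, 34 did.

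Other probe sets of the same genes gave smaller differences for several of the lower readings. Itgav, an integrin chain, read 204 and 129 in wild type and 21.4 and 88.2 in Il10-null on the probe set in question (log2 -1.61 ± 0.68) but overlapped on a brighter one (-0.27 ± 0.32). Mtor, the growth kinase, had -1.24 ± 0.45 on one probe set and -0.37 ± 0.31 on its brighter one. Ctse, a protease of gastrointestinal epithelium, had -1.11 ± 0.48 against -0.02 ± 0.24 and -0.25 ± 0.23, and Glb1, lysosomal galactosidase, had -1.01 ± 0.38 against -0.18 ± 0.28. Folr1, a folate receptor, was at -1.11 ± 0.47 on the probe set that passed the filter, and a dimmer one overlapped. The brighter probe sets thus gave differences closer to 0 for Itgav, Mtor, Ctse and Glb1. On them the pools were still apart on the lower side for Mtor, Glb1 and 1 of the brighter Ctse probe sets.

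**Figure D4:**
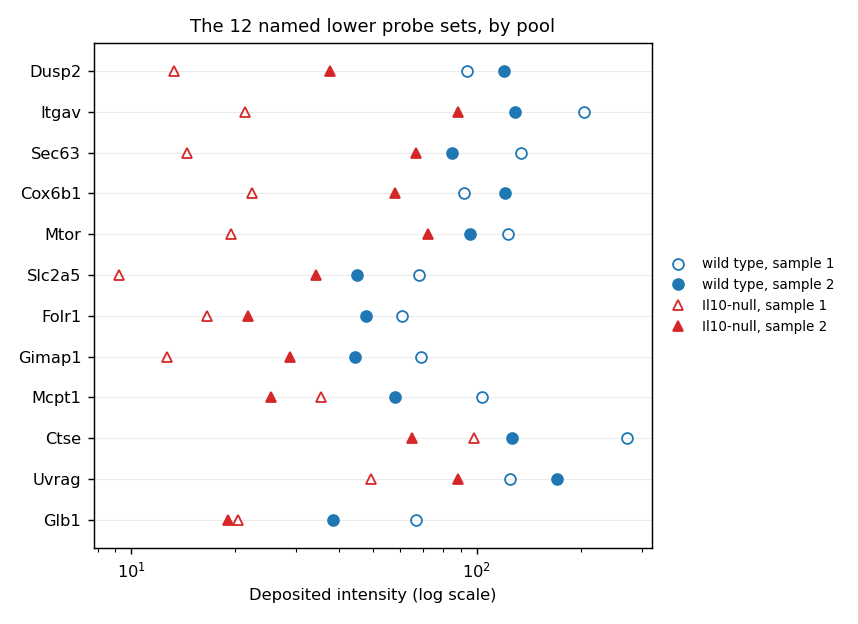
Deposited intensity on a log axis for the 12 lower probe sets that were largest among those with 1 symbol, pools apart and an unadjusted limma p under 0.05, 1 row each, with wild-type pools as circles, Il10-null pools as triangles, sample 1 open and sample 2 filled. The open triangle, the Il10-null sample 1 pool, is the leftmost in 9 of the 12 rows, as for Dusp2 at 13.3.

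A few probe sets outside these groups were named after their values were seen. The smallest adjusted p belonged to probe set 96215_f_at, to which the annotation used gives either no gene symbol or several, and whose type is designed to a family of sequences. It read 246 and 229.7 in wild type and 1230.3 and 1009 in Il10-null (log2 2.18 ± 0.24, limma adjusted p = 0.102), with a difference of like size in both samples. Gga2, an adaptor of vesicle sorting, read 18.8 and 14.6 and 69.0 and 72.8 (1.56 ± 0.26; adjusted p = 0.705). Nnt, a mitochondrial transhydrogenase that C57BL/6J is known to carry as a deletion, read 42.3 and 39.7 in wild type and 159 and 94.8 in Il10-null (1.36 ± 0.36). In the C3H/HeJBir pools Nnt read 143 and 67.8 in wild type and 82.8 and 89.2 in Il10-null. The Il10 effect on Nnt differed between C3H/HeJBir and C57BL/6J by -1.55 ± 0.51, and the cause was not tested. Upp1, a uridine phosphorylase, read 265 and 117 and 543 and 669 (1.70 ± 0.79). By position, 5 of the 118 probe sets at an unadjusted p under 0.05 lay on chromosome 1, which holds Il10, a share of 4.24% against 4.75% of the tested probe sets.

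Whether the C57BL/6J differences were particular to that strain was tested as the difference between the Il10 effects of C3H/HeJBir and C57BL/6J, in the same limma fit. No probe set passed an adjusted p of 0.05 (0%, smallest 0.480), and 112 (1.5%) had an unadjusted p under 0.05. Several interferon gamma and MHC class II genes had differences in the same direction in C3H/HeJBir. The on-array list medians there were 0.48 for interferon gamma-induced and 0.14 for MHC class II genes, while that of type I interferon-induced genes was -0.44, against 0.12 in C57BL/6J. Over tested members the C3H/HeJBir median was 0.98 for MHC class II genes, against 0.99 in C57BL/6J. For interferon gamma-induced genes it was 0.51, against 0.86 in C57BL/6J. Iigp1 was 2.17 there, Ido1 1.72, Cxcl9 1.24, Cd74 1.62 and Gbp2 0.75, and for each of these the difference between strains was within 1.5 times its SE. It was larger for Gbp3 (-1.41 ± 0.72) and for the other Iigp1 probe set (-1.45 ± 0.89). Of the C3H/HeJBir pools, sample 1 Il10-null was the highest for Iigp1, Ido1, Cxcl9, Cd74 and Gbp2. Cd74 read 3776 and 1605 against 583 and 1079 in the wild-type pools. Cxcl9 read 182 and 26.85 against 26.3 and 24.1. Gbp2 read 513 and 176 against 199 and 153, so its pools overlapped. The C3H/HeJBir sample 1 pools were also hybridised on different days, so genotype and day cannot be told apart in that pair.

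Several named genes with small interaction p values are given here with their C3H/HeJBir values. Retnlb was 0.06 in C3H/HeJBir, where it read 10942 and 9363 in wild type and 10963 and 10101 in Il10-null, and the strains' effects differed by -1.95 ± 0.59 (limma adjusted p = 1.00). These C3H/HeJBir readings were at or near the highest intensity of their arrays, 11236 and 9808 in wild type and 12860.0 and 10853 in Il10-null, so the strains' effects cannot be compared for Retnlb if such readings no longer scale, which was not tested. Dusp2 was 0.71 there (difference 2.47 ± 0.64), Sec63 1.60 (3.004 ± 0.83) and Hspa1b -0.89 (-1.63 ± 0.44). The probe set 96215_f_at read 303 and 240.2 and 235 and 271 in the C3H/HeJBir pools (difference -2.27 ± 0.34, limma adjusted p = 0.480), and Gga2 had -0.36 (-1.93 ± 0.36). The dimmer Vcam1 probe set was at -0.09 in C3H/HeJBir (difference -1.39 ± 0.31). None of these differences between strains passed the adjusted threshold, and the intervals around them are wide with 2 pools per group.

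**Figure D5:**
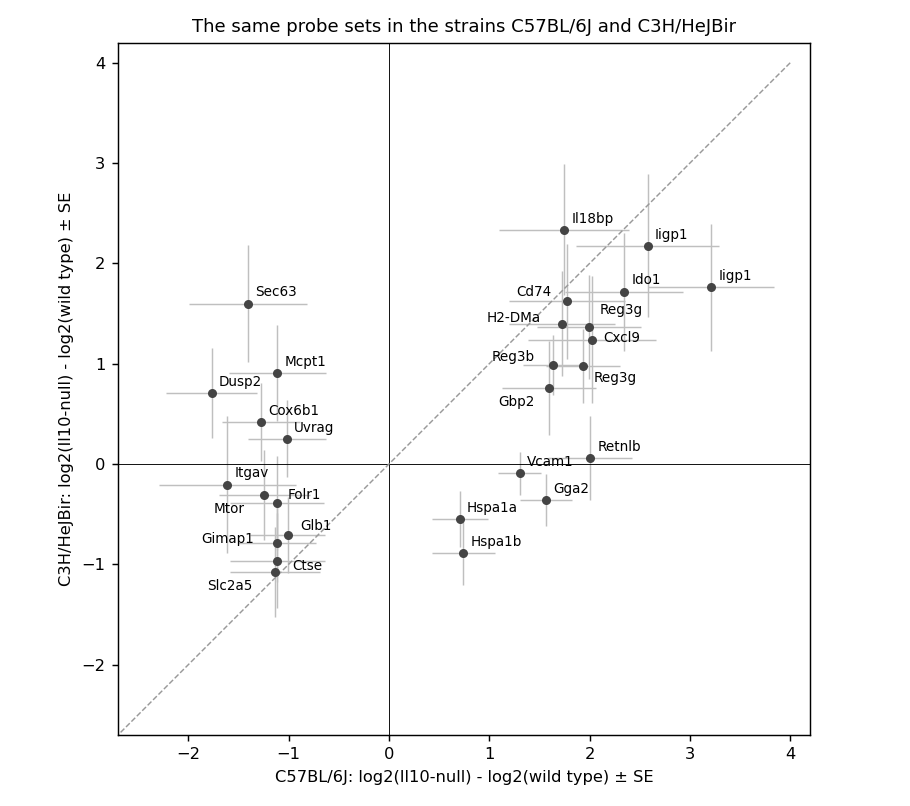
Log2 difference, Il10-null minus wild type, in C57BL/6J (x axis) and C3H/HeJBir (y axis) with the SE of the fit as bars, for the 12 higher and 12 lower probe sets named for C57BL/6J by size and for Vcam1, Gga2, Hspa1a and Hspa1b; the dashed line marks equal differences. Interferon, MHC class II and Reg3 genes lie in the upper right, Retnlb lies near 0 in C3H/HeJBir, where it was near the top of the arrays' range, and Dusp2 and Sec63 lie on opposite sides of 0.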

How the data were processed

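RNA of whole colon from 4 C57BL/6J pools and, for the comparison of strains and the shared spread of the fit, 4 C3H/HeJBir pools was read on 1 array each. The deposited values are linear intensities, 1 per probe set, with nearly equal trimmed means on the 8 arrays; whether and how the authors scaled them was read only from the values, and no source used here names the summary algorithm or background correction. Groups came from the sample titles, and the 3 hybridisation days were taken per the file headers of the experiment files. From the intensities, log2(intensity + 11.07), with the 20th percentile of all values as pseudocount, was computed. Testing was limited to the 7453 of 12422 probe sets whose mean over the 8 arrays reached 37.0, the 40th percentile of the means. Of all probe sets, 10833 had 1 gene symbol in the platform annotation, 396 several and 1193 none, and 10817 matched RefSeq for GRCm38.p6, which gave the promoter sequences.

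The limma package, version 3.58.1 under R 4.3.3, fitted the group means by lmFit and moderated them by eBayes with 4 residual degrees of freedom; tests were two-sided, with Benjamini-Hochberg adjustment over the tested probe sets. The fit was tested on simulated data. Sample numbers were taken to pair the pools because deviations from the group means correlated at 0.198 to 0.332 over the 6 pairs of groups. The labels do not say what a number marks. The pairing was used for the differences within a sample pair and for the replicate block. The main fit, of all 8 arrays, had no block on sample number or day, so its SE and p values do not use the pairing. The number of arrays limits the precision.

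Genes on several probe sets were read by the tested one with the highest mean, or, with none tested, the brightest. "Apart" means that both Il10-null pools lay above, or both below, both wild-type pools. Named genes were the 12 probe sets with the largest difference in each direction among those with 1 symbol, pools apart and an unadjusted p under 0.05, up to 4 members per list with the largest absolute difference, and Il10, Il10ra, Il10rb, Cd14, Gbp2b, Pla2g2a, Xist and Eif2s3y; further members were named after their values were seen. The comparison, gene lists and rules were chosen with earlier results of these data known. Alternatives were other pseudocounts (2.76 and 56.7), filters, normalizations, moderation, samples, blocks, probe set averaging and each pool left out.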

Additional observations from a re-analysis of the deposited data

How the results depend on the processing

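The probe set 96215_f_at passed a limma adjusted p of 0.05 in 3 alternatives, so that 1 probe set was called with the 50th percentile pseudocount (adjusted p = 0.00903), the 60th percentile filter (0.0281) and trend and robust moderation (0.00889), and 0 were called in the others. The counts at an unadjusted limma p under 0.05, 66 higher and 52 lower, became 163 and 160 without a filter and 38 and 19 with the 60th percentile filter, where more or fewer probe sets were tested. They were 106 and 91 in a fit of the 4 C57BL/6J arrays, and the lower count was 34 with trend and robust moderation; the cause was not tested. The numbers of probe sets with pools apart, 942 higher and 1011 lower, became 1555 and 1798 without a filter and 615 and 649 with the stricter one.

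With the replicate block on the sample number, which uses the pairing, 124 were higher and 96 lower at an unadjusted p under 0.05, and no call by adjusted p changed. Without 1 pool at a time the unadjusted counts ran from 61 to 124 higher and from 28 to 103 lower. The counts with pools apart ran from 2012 to 2621 higher and from 2157 to 2549 lower, where 1 pool fewer has to be cleared. Without 1 pool at a time, the list medians over tested members ranged from 0.65 to 1.32 for interferon gamma-induced genes and from 0.30 to 1.55 for MHC class II. For antimicrobial genes they ranged from -0.043 to 0.23. Over all settings, which include each sample pair alone, the ranges were 0.33 to 1.32, 0.15 to 1.72 and -0.043 to 0.39 in the same order.

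Of 101 probe sets whose log2 difference is given, 9 changed sign under some alternative. With a block on the hybridisation day Lcn2 became 0.13, Itln1 0.020, Mptx1 0.0091, Chga 0.048 and Glb1 0.019 on its brighter probe set. Without 1 pool at a time the brighter probe sets of Vcam1, Ctse and Itgav ran from -0.46 to 0.40, from -0.18 to 0.13 and from -0.74 to 0.21, and Il10rb from -0.13 to 0.40. Signal near background limits the dim genes, since 4969 of the 12422 probe sets were not tested.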
